A study of Mus musculus with 6 samples.

Results

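The senescence barrier genes described here are 8 genes of the INK4, p21 and p53 axis, namely Cdkn2a, Cdkn2b, Cdkn1a, Trp53, Mdm2, Ccng1, Gdf15 and Bbc3. They were taken by name from the deposited table, and all 8 were found among its 18301 distinct genes. All 8 also passed the filter of a mean of at least 1 RPKM, which scales reads by transcript length and library size, that left 11939 genes to test. The series asked how the CDP-ethanolamine pathway, which builds the membrane lipid phosphatidylethanolamine, acts on the early change of fibroblasts into epithelial-type cells during reprogramming. It measured poly(A) RNA from mouse embryonic fibroblasts of the cross CBA/CaJ X C57BL/6J on day 2 of reprogramming in the defined medium iCD1, after transfection of short hairpin RNAs. As controls, 2 libraries carried a hairpin against luciferase (shLuc) in complete iCD1. There were 4 treated groups of 1 library: shEtnk1/2 against the ethanolamine kinases, shPcyt2 against the next enzyme of the pathway, shPebp1 against a protein known to bind phosphatidylethanolamine, and shLuc in iCD1 without ethanolamine (Etn-deprived). How the reprogramming factors were delivered, and whether the libraries came from separate cultures, is not given in the sources used here, so p-values measure only the spread between these samples. The series also names shPebp1 without ethanolamine, which was not analysed here.

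As background, fibroblasts that receive the reprogramming factors meet a barrier formed by the Ink4/Arf locus and by p53. The locus makes the inhibitors p16Ink4a and p15Ink4b, which hold cyclin D kinases and keep RB active, and p19Arf, which restrains Mdm2 and so stabilises p53. p53 in turn switches on Cdkn1a, whose product p21 stops cyclin-dependent kinases. Lowering the locus, p53 or p21 in mouse fibroblasts is known to raise the yield of reprogrammed colonies. p53 is regulated to a large extent at the level of its protein, which RNA does not measure.

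Cdkn2a and Cdkn2b are neighbours on chromosome 4 (mm10). The deposited span of Cdkn2a was chr4:89274473-89294619 and that of Cdkn2b chr4:89306289-89311032, both on the minus strand. The length behind the Cdkn2a values, 1136 nt, equals the summed exons of the Arf and Ink4a transcripts, so the value pools both products. The RefSeq sequences (GRCm38, the assembly of mm10) upstream of the 3 starts of the locus are shown because they differ in CpG content. In the 250 bases upstream of the Arf start there were 40 CpG, more than in 98.7% of 32851 such windows, against 7 upstream of the Ink4a start, 12 upstream of Cdkn2b and a median of 6 over all windows. The 3 stretches of 120 bases below end 50 bases before each start, on the minus strand at chr4:89294670-89294789, chr4:89282243-89282362 and chr4:89311083-89311202, with each CpG in capitals.
Cdkn2a, Arf start: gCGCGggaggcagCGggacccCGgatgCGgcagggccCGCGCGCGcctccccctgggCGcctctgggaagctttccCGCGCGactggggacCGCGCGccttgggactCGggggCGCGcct
Cdkn2a, Ink4a start: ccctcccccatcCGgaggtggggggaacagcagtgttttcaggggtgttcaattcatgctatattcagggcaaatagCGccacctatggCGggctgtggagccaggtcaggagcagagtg
Cdkn2b: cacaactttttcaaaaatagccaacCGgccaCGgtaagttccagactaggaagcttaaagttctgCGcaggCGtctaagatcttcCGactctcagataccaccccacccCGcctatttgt
The Arf stretch holds 19 CpG, the Ink4a stretch 3 and the Cdkn2b stretch 6.

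The p53 consensus decamer, which reads the same on both strands, was searched in the same upstream windows of all 8 genes. It was found for 4 of the 8 genes and in 4 of their 13 windows, against 7.13% of all 32851 windows. Several members were listed for being known p53 targets, so this is a description of the list, and a match is not evidence of binding in these cells. The stretches of 50 bases around the decamer (in capitals) are shown because the 4 genes differ in how their RNA behaves below. They lie at chr17:29090908-29090957 on the plus strand for Cdkn1a, chr11:69580264-69580313 on the plus strand for Trp53, chr10:117710915-117710964 on the minus strand for Mdm2 and chr11:40755442-40755491 on the minus strand for Ccng1.
Cdkn1a: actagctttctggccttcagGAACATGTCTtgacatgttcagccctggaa
Trp53: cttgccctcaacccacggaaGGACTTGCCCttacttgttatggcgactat
Mdm2: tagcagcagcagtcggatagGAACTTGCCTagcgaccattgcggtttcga
Ccng1: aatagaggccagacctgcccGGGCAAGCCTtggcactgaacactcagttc
In Cdkn1a the decamer ended 41 bases before the annotated start at chr17:29090979, and another decamer ended 63 bases before that start. The window of the other annotated Cdkn1a start, chr17:29093769, held 0 decamers. The decamer ended 65 bases before the annotated start in Trp53, 176 in Mdm2 and 175 in Ccng1. No decamer was in the windows of Cdkn2a, Cdkn2b, Gdf15 or Bbc3.

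The 6 libraries held between 18599217 and 20164255 reads, recovered from the values themselves. Etnk1 was at 59.1% of the shLuc mean in shEtnk1/2 and Pcyt2 at 72.9% in shPcyt2, while Etnk2 had at most 1.00 RPKM in any library. Pebp1 went against 1 label: it had 250.4 RPKM in shLuc replicate 1 but 101 RPKM in the library labelled shLuc replicate 2, close to the 99.6 RPKM of shPebp1. Results are therefore also given without each shLuc library. The 10 fibroblast markers summed to between 9578 and 12956 RPKM, highest in shEtnk1/2, against 10276 and 10309 in shLuc. Collagen genes and Vim make most of that sum: Col1a1, Col1a2, Col3a1 and Vim had at least 2002 RPKM in every library. Pdgfra, Pdgfrb, Prrx1, Thy1 and Twist1 had at most 147. The 7 macrophage markers in the table summed to 47.5 to 62.6 RPKM, highest in shEtnk1/2, with Lyz2 at 38.4 to 52.5 and Ptprc at most 0.193 RPKM. The 5 endothelial markers summed to 21.6 to 25.5 RPKM, with Tek at 20.7 to 24.6, Kdr at 0.631 to 1.21 and Pecam1 at most 0.0923 RPKM. The 4 reprogramming factors summed to 1333 and 1242 RPKM in shLuc, 891 in shEtnk1/2, 1152 in shPcyt2, 918 in Etn-deprived and 1153 in shPebp1.

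The 8 members spanned a wide range of levels in shLuc, on the RPKM scale, which allows for length. Cdkn1a, the p21 gene, was the highest at 247 RPKM on average, above 98.3% of the tested genes, followed by Ccng1, cyclin G1, at 159 RPKM. Trp53 stood at 67.8, Mdm2 at 43.4, Cdkn2b at 30.7 and Cdkn2a at 21.1 RPKM. Gdf15, a secreted factor of the TGF-beta superfamily, had 8.42 RPKM and Bbc3 6.94 RPKM. Both of these lay in the lower part of the tested range, above 37.9% and 32.1% of genes. The order of the 8 members was the same in both shLuc libraries. In bulk RNA such as this, fewer cells of a kind and less RNA per cell cannot be told apart.

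**Figure D1:**
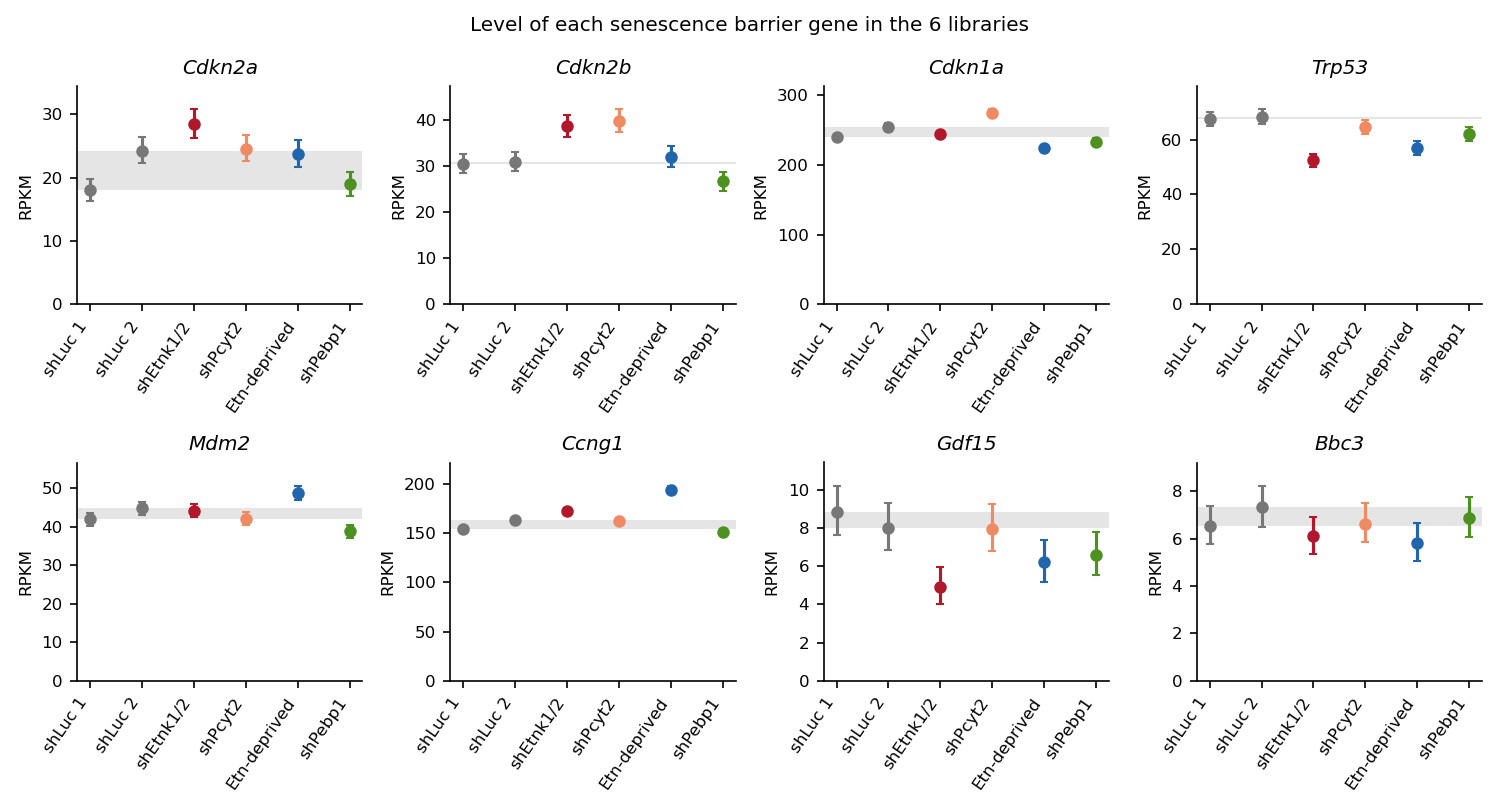
Level of each member in the 6 libraries, in RPKM on a linear axis that starts at 0, with bars for the 95% exact Poisson interval of the read count and a grey band between the 2 libraries labelled shLuc. Gdf15 and Trp53 are lowest in shEtnk1/2 (4.90 and 52.4 RPKM), Cdkn2b is highest in shEtnk1/2 and shPcyt2 (38.6 and 39.7 RPKM), and Ccng1 is highest in Etn-deprived (194 RPKM).

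The INK4 genes come first, as direct inhibitors of the cyclin D kinases. Cdkn2a had 18.0 RPKM in shLuc replicate 1, 24.3 in the library labelled shLuc replicate 2, 28.5 in shEtnk1/2, 24.6 in shPcyt2, 23.8 in Etn-deprived and 19.0 in shPebp1. The 2 shLuc values lay farther apart than shPcyt2, Etn-deprived or shPebp1 lay from their mean. Their difference was 29.8% of the mean. On the log2(RPKM + 1) scale it was 0.41, larger than that of 98.8% of the 10893 tested genes with at least 100 reads on average. The shEtnk1/2 and shPcyt2 libraries lay above both shLuc libraries, Etn-deprived and shPebp1 between them. The difference of shEtnk1/2 from the shLuc mean was 0.43 on the log2(RPKM + 1) scale (SE 0.19, 95% interval -0.10 to 0.96, limma adjusted p = 0.344). No difference of Cdkn2a from shLuc passed this test, and its intervals were the widest of the 8 members. With limma-voom the shEtnk1/2 difference passed (0.45, adjusted p = 0.0302, where adjusted p over 11 alternatives ran up to 1.00). It was 0.22 without shLuc replicate 1 and 0.64 without the library labelled shLuc replicate 2, and in shPcyt2 0.02 and 0.43 against 0.22 with both.

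Cdkn2b, the p15Ink4b gene, which TGF-beta is known to induce, varied more clearly. It had 30.4 and 30.9 RPKM in the 2 libraries labelled shLuc, 38.6 in shEtnk1/2, 39.7 in shPcyt2, 31.9 in Etn-deprived and 26.6 in shPebp1. The shLuc values differed by 1.39% of their mean. On the log2(RPKM + 1) scale that gap was larger than in only 12.7% of tested genes with at least 100 reads on average. The hairpins against the pathway enzymes gave levels at 126% and 129.6% of the shLuc mean, and shPebp1 was the lowest library at 86.7%. The difference was 0.32 in shEtnk1/2 (SE 0.08, interval 0.14 to 0.50, limma adjusted p = 0.0606) and 0.36 in shPcyt2 (SE 0.08, interval 0.18 to 0.54, adjusted p = 0.306), and neither passed the threshold of 0.05. In shEtnk1/2 it passed in 5 of 11 alternative settings, with adjusted p from 0.0209 to 1.00. The Cdkn2a and Cdkn2b transcripts share no run of identical bases longer than 23, and no 50-base word of either occurs in the transcript of another gene.

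Cdkn1a (chr17:29090986-29100722, plus strand), which p53 switches on and whose product stops cyclin-dependent kinases, had no difference past the threshold. It had 240.2 and 255 RPKM in the shLuc libraries, 244 in shEtnk1/2, 274 in shPcyt2, 224 in Etn-deprived and 233 in shPebp1. The shEtnk1/2 value lay between the controls, shPcyt2 above both, and Etn-deprived and shPebp1 below both. The largest difference from shLuc was 0.15 in shPcyt2 (SE 0.07, interval 0.00 to 0.30, limma adjusted p = 0.836), and that of shEtnk1/2 was -0.02 (interval -0.16 to 0.13). The direction in shEtnk1/2 flipped to 0.05 with median-ratio scaling. Of the 50-base words of its transcript 10.5% also occur in the transcript AC167363.2, so its reads may be shared.

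Trp53 (chr11:69580359-69591873, plus strand) encodes p53 itself. It had 67.4 and 68.2 RPKM in the shLuc libraries, 52.4 in shEtnk1/2, 64.5 in shPcyt2, 57.0 in Etn-deprived and 62.1 in shPebp1. All 4 treated libraries lay below both controls. The shLuc values differed by 1.22% of their mean, so a value falls outside their range easily. On the log2(RPKM + 1) scale that gap was larger than in only 11.4% of tested genes with at least 100 reads on average. In shEtnk1/2 Trp53 fell to 77.2% of the shLuc mean (log2 difference -0.37, SE 0.07, interval -0.53 to -0.21, limma adjusted p = 0.0251). In Etn-deprived it was at 84.0% (-0.25, SE 0.07, adjusted p = 0.0917), in shPebp1 at 91.5% and in shPcyt2 at 95.1%, none past the threshold. Of its 50-base words 7.43% also occur in the pseudogene Trp53-ps.

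Mdm2 (chr10:117688875-117710758, minus strand), the ubiquitin ligase that marks p53 for destruction and is itself a p53 target, had 41.9 and 44.8 RPKM in shLuc, 44.2 in shEtnk1/2, 42.1 in shPcyt2, 48.7 in Etn-deprived and 38.8 in shPebp1. Etn-deprived lay above both controls and shPebp1 below both, with the other libraries between. No difference passed the test, the largest being 0.17 in Etn-deprived (SE 0.08, interval -0.01 to 0.34, limma adjusted p = 0.283).

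Among the downstream p53 targets, Ccng1 (chr11:40748552-40755286, minus strand) had 154 and 163 RPKM in shLuc, 173 in shEtnk1/2, 162 in shPcyt2, 194 in Etn-deprived and 151 in shPebp1. Etn-deprived was the highest library and shPebp1 the only one below both controls. Ccng1 rose in Etn-deprived to 123% of the shLuc mean (0.29, SE 0.07, interval 0.14 to 0.44, limma adjusted p = 0.0436).

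Gdf15, which both p53 and the integrated stress response are known to induce, had 8.83 and 8.02 RPKM in shLuc, 4.90 in shEtnk1/2, 7.95 in shPcyt2, 6.20 in Etn-deprived and 6.59 in shPebp1. These rest on 193, 171, 105, 167, 125 and 133 reads in the same order, and every treated library lay below both controls. Gdf15 fell in shEtnk1/2 to 58.2% of the shLuc mean (-0.67, SE 0.12, interval -0.94 to -0.40, limma adjusted p = 0.0197), the largest difference of any member in any comparison with shLuc. In Etn-deprived it was at 73.6% (-0.39, SE 0.12, adjusted p = 0.117) and in shPebp1 at 78.2% (-0.31, adjusted p = 0.799), neither past the threshold. The deposited Gdf15 model, chr8:70629394-70631635 with 1084 nt, ends short of both RefSeq starts, so the first bases of those transcripts are not in the value.

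Bbc3 (chr7:16309583-16318334, plus strand), whose product PUMA promotes cell death, had 6.55 and 7.33 RPKM in shLuc, 6.10 in shEtnk1/2, 6.64 in shPcyt2, 5.82 in Etn-deprived and 6.88 in shPebp1. The shEtnk1/2 and Etn-deprived libraries lay below both controls, and the other 2 between them. No difference passed the test, the largest being -0.22 in Etn-deprived (SE 0.13, interval -0.50 to 0.06, limma adjusted p = 0.375).

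**Figure D2:**
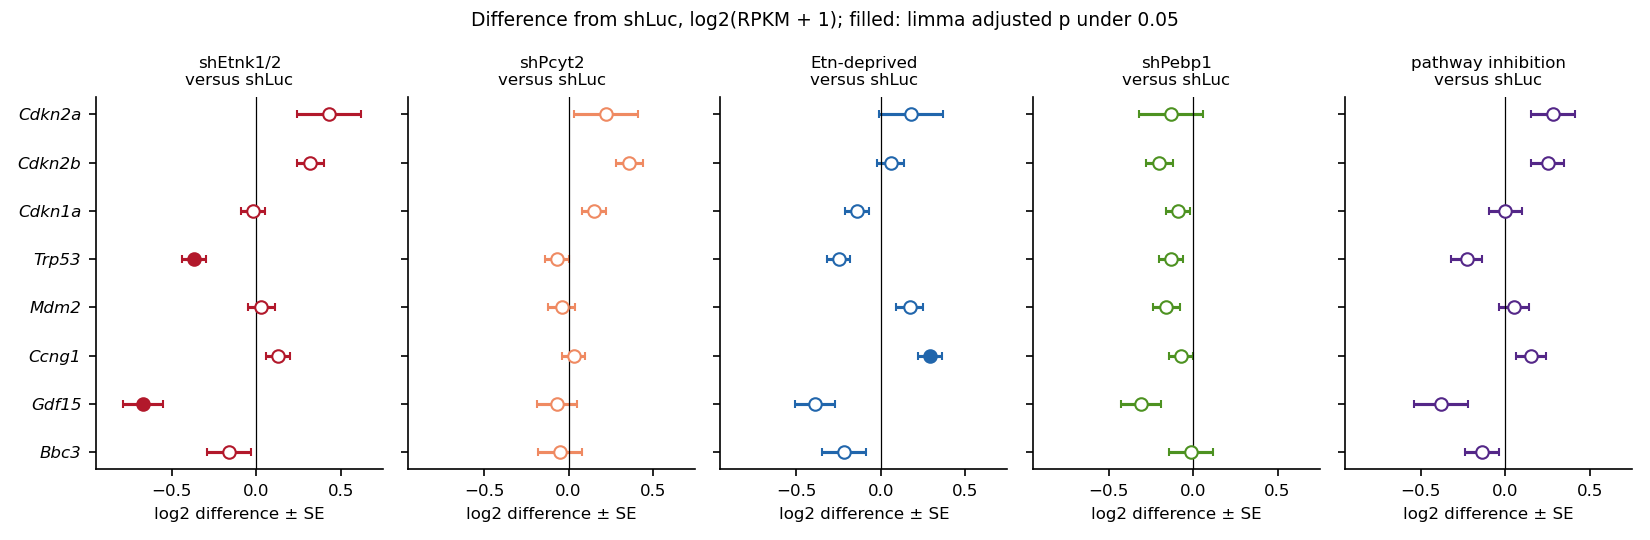
Difference of each treated library from the shLuc mean, and of the 3 pathway libraries together, on the log2(RPKM + 1) scale, with bars for the standard error; filled points had a limma adjusted p under 0.05. Trp53 (-0.37) and Gdf15 (-0.67) are filled in shEtnk1/2 and Ccng1 (0.29) in Etn-deprived, and no member is filled in the other panels.

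By comparison, the shEtnk1/2 library showed lower RNA for p53 and Gdf15, levels of both INK4 genes above the controls that did not pass the test, and p21 between the controls. It had 2 of 8 members called, both lower, where limma called 3.46% of all tested genes. Above both shLuc libraries lay 3 members (Cdkn2a, Cdkn2b and Ccng1) against 25.0% of all tested genes, and below both lay 3 (Trp53, Gdf15 and Bbc3) against 51.9%. The sum of the reprogramming factors was also lowest here and that of the fibroblast markers highest, and their part in these differences was not tested. Both calls were lost when either shLuc library was left out. Those fits took their error from the other 2 pathway libraries, which differ in treatment, so they cannot decide whether the calls hold. The differences stayed at -0.61 and -0.74 for Gdf15 and -0.38 and -0.36 for Trp53. With the trend in transcript length removed the only member called was Cdkn2b, higher by 0.41 (adjusted p = 0.0422), while Trp53 (-0.30, adjusted p = 0.0760) and Gdf15 (-0.57, adjusted p = 0.0522) were not.

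In shPcyt2, no member passed the test, and the members farthest above the shLuc mean were Cdkn2b (129.6% of it), Cdkn2a (116%) and Cdkn1a (111%). None of 8 members was called, where limma called 0.109% of genes and limma-voom none of the members. Cdkn2b and Cdkn1a had unadjusted p under 0.05 (0.00104 and 0.0449). Above both controls lay 3 members (Cdkn2a, Cdkn2b and Cdkn1a) against 29.0% of genes, and below both lay 2 (Trp53 and Gdf15) against 39.4%. Pcyt2 itself was still at 72.9% of the control level in this library.

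With ethanolamine removed, Ccng1 rose and no other member passed the test. That was 1 of 8 members called, where limma called 3.80% of genes. Above both controls lay 3 members (Cdkn2b, Mdm2 and Ccng1) against 36.0% of genes, and below both lay 4 (Cdkn1a, Trp53, Gdf15 and Bbc3) against 41.9%, shares near those of all genes. Set against shEtnk1/2 itself, no member differed past the threshold (lowest limma adjusted p = 0.230, for Cdkn2b). When either shLuc library was left out, Ccng1 differed by 0.25 and 0.33 and its call was lost. The error of those fits came from differently treated libraries and cannot decide the call. With both shLuc libraries kept, the call was also lost with the trends in length and GC content removed, which left a difference of 0.16 (limma adjusted p = 0.386).

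Length and GC content ordered the median differences of binned genes in this library, and the members spread along both. Ccng1 had the longest and least GC-rich transcript of the 8, at 3487 nt and 40.8% GC, and Gdf15 the shortest, at 1084 nt and 62.2%, against medians of 2923 nt and 50.2% over the tested genes. When all genes were cut into 20 equal bins by GC content, the bin with a median of 38.7% had a median difference of 0.17 in Etn-deprived and that with 61.3% had -0.15. In shEtnk1/2 the same bins had 0.004 and -0.10, a narrower range. Among members richer in GC than the median, Bbc3 (65.2% GC), Gdf15, Cdkn1a (54.4%) and Trp53 (54.0%) had negative differences in Etn-deprived. Cdkn2a (60.2%) was at 0.18 there and Cdkn2b (55.9%) at 0.06. With both trends removed, the difference of Gdf15 in Etn-deprived went from -0.39 to -0.16 and that of Trp53 from -0.25 to -0.15.

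**Figure D3:**
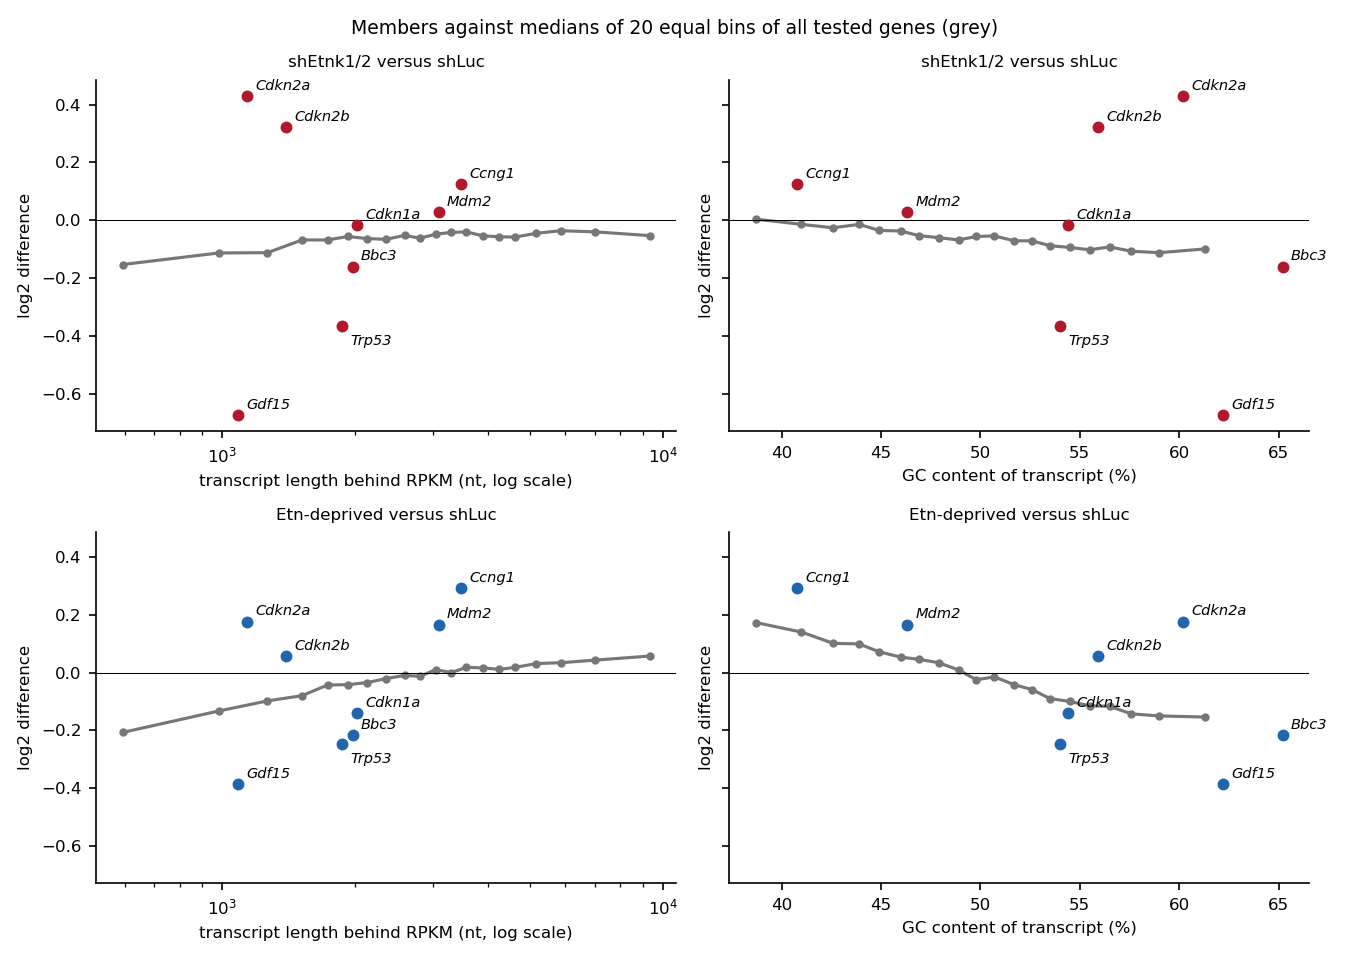
Difference from shLuc on the log2(RPKM + 1) scale against the transcript length (log axis) and GC content, in shEtnk1/2 (top) and Etn-deprived (bottom); grey points are medians of 20 equal bins of all tested genes and coloured points the members. In Etn-deprived the bins run from 0.17 at 38.7% GC to -0.15 at 61.3% GC. Ccng1 (0.29) lies at the low end, and Gdf15 (-0.39), Bbc3 (-0.22) and Cdkn2a (0.18) lie at the high end.

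In shPebp1, every member had a difference from the shLuc mean below 0, from -0.31 for Gdf15 to -0.01 for Bbc3, with a median of -0.13 against 0.01 over all tested genes. None of 8 was called, where limma called 0.101% of genes, and limma-voom called none of them either. Cdkn2b (-0.20) and Gdf15 had unadjusted p under 0.05 (0.0321 and 0.0286). No member lay above both controls, against 36.6% of genes, and 6 lay below both (all but Cdkn2a and Bbc3), against 31.7%. The control labelled shLuc replicate 2 had a Pebp1 level like that of shPebp1. Without that control Cdkn2a (0.07) and Bbc3 (0.06) turned above the remaining control.

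The 3 libraries of pathway inhibition, shEtnk1/2, shPcyt2 and Etn-deprived, were then compared as 1 group with shLuc. Cdkn2b was above both controls in all 3, with 36.7 ± 4.22 RPKM (SD, n = 3) against 30.7 ± 0.301 (n = 2), and was the only such member, against 7.82% of all tested genes. Trp53 (57.9 ± 6.11 against 67.8 ± 0.585 RPKM) and Gdf15 (6.35 ± 1.53 against 8.42 ± 0.575 RPKM) were below both controls in all 3, against 15.9% of genes. Each of these had an exact two-sided permutation p of 0.200, where the least p that 10 splits can give is 0.1. None of 8 members was called by limma, which called 0% of the 11939 genes, with an unadjusted p under 0.05 for 724, and limma-voom gave 0 calls too. The log2 differences were 0.25 for Cdkn2b (interval 0.02 to 0.48), -0.23 for Trp53 (-0.44 to -0.02) and -0.38 for Gdf15 (-0.74 to -0.01), each with adjusted p = 0.812. Every comparison with shLuc shares the same 2 controls.

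The treated libraries were also set against each other in 6 contrasts. Each had 1 library a side and took its error from the shLuc pair, so neither condition was replicated. Cdkn2b was the only member called, higher in shEtnk1/2 than in shPebp1 by 0.52 (38.6 against 26.6 RPKM, SE 0.09, interval 0.32 to 0.73, limma adjusted p = 0.0194). It was at a similar distance in shPcyt2 against shPebp1, 0.56 (interval 0.36 to 0.77, adjusted p = 0.0557). That made 1 member called where limma called 2.72% of genes in shEtnk1/2 against shPebp1, and 0 of 8 where it called 0.921% in shEtnk1/2 against shPcyt2, 0.854% in shEtnk1/2 against Etn-deprived, 3.22% in shPcyt2 against Etn-deprived, 0.168% in shPcyt2 against shPebp1 and 1.22% in Etn-deprived against shPebp1. Ccng1 was higher in Etn-deprived than in shPebp1 by 0.36 (adjusted p = 0.0580) and Cdkn1a in shPcyt2 than in Etn-deprived by 0.29 (adjusted p = 0.0724), neither past the threshold. The fall of Trp53 and Gdf15 in shEtnk1/2 was not shown to be particular to it, since the differences from shPcyt2 were -0.29 (adjusted p = 0.145) and -0.60 (adjusted p = 0.0848).

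Across the 6 libraries the closest pairs of members were Trp53 and Gdf15 (Pearson r = 0.96, Spearman rho = 0.94, n = 6) and Mdm2 and Ccng1 (r = 0.92, rho = 0.94). Trp53 and Bbc3 had r = 0.78, and the neighbours Cdkn2a and Cdkn2b r = 0.77 (rho = 0.83). Without the 2 libraries farthest from the median, r was 0.84 for Trp53 and Gdf15, 0.67 for Mdm2 and Ccng1 and 0.59 for the INK4 pair. The most negative values were -0.75 for Ccng1 and Bbc3 and -0.62 for Trp53 and Ccng1. These are descriptions over 6 libraries that share depth and composition effects across genes, out of 28 pairs.

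The coefficient of variation over the 6 libraries was 20.4% for Gdf15, above 96.5% of the tested genes with at least 100 reads, 17.0% for Cdkn2a and 15.5% for Cdkn2b, against a median of 8.30%. Cdkn1a was among the steadier genes at 7.23%, below the median. Counting error alone would give 8.37% for Gdf15 and 1.02% for Cdkn1a.

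The genes whose pattern over the 6 libraries was most like each member were sought among the 9025 other genes that averaged 5 RPKM or more. Cdkn2a was most like Sorcs2 (r = 0.996) and Rnf24, Cdkn2b like Ctgf (0.978) and Grk5, and Cdkn1a like Lhpp (0.992) and Rps2. Trp53 was most like H2afv (0.993) and Zfp219, Mdm2 like Fam98b (0.983) and Zufsp, and Ccng1 like Ano3 (0.992) and Cntln. Gdf15 was most like Med10 (0.998) and Nrm, and Bbc3 like Rhbdd2 (0.998) and Snn. These values rest on 6 libraries that share depth and composition, and no test is attached to them. Ctgf, a TGF-beta target that encodes a matrix-associated growth factor, had 15.5 and 15.7 RPKM in shLuc, 18.0 in shEtnk1/2, 17.9 in shPcyt2, 16.6 in Etn-deprived and 14.3 in shPebp1. Because Ctgf was picked for its likeness to Cdkn2b, it follows from the choice that the same libraries were high and low. A shared cause was not tested.

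The wider p53 pathway was described from lists. Of 38 other p53 target genes, all tested, none was called in shEtnk1/2 (median difference -0.05 against -0.06 over all genes), shPcyt2 or shPebp1, and 1 in Etn-deprived. Beside the 3.46%, 0.109%, 0.101% and 3.80% of all genes called in these 4 libraries, such counts in a list of 38 are near the background. The gene called was Ptp4a3, a phosphatase gene, lower in Etn-deprived at 9.85 RPKM against 13.9 and 14.3 (-0.48, limma adjusted p = 0.0310). In shPebp1 29 of the 38 had differences below 0, with a median of -0.07 against 0.01 over all genes. In shEtnk1/2 22 were below 0, in shPcyt2 21 and in Etn-deprived 18. The share of all genes below 0 is not given here, so these counts are not read as a result about the list. Of 19 p53 regulators tested, Rpl11, a ribosomal protein known to bind Mdm2, fell in Etn-deprived from 766 and 757 to 519 RPKM (-0.55, adjusted p = 0.000977), and no other was called in any library. The integrated stress response genes, to which Gdf15 also answers, had no call among the 11 tested. In Etn-deprived, where Gdf15 was at -0.39 without passing the test, 9 of the 11 had differences below 0, with a median of -0.19 against -0.01 over all genes. In the other libraries the list medians were -0.07 (shEtnk1/2), -0.02 (shPcyt2) and 0.00 (shPebp1). The largest differences there were those of Chac1, -0.65 in shPebp1 (adjusted p = 0.609), and Ddit4, -0.28 in Etn-deprived (adjusted p = 0.150).

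Among 20 other cyclin-dependent kinase inhibitors and RB pathway genes, 2 were called in shEtnk1/2, 1 in each direction, against 3.46% of all genes, 2 lower in Etn-deprived against 3.80%, and none in the other libraries. In shEtnk1/2 Cdkn1c, the p57 inhibitor, rose from 53.1 and 53.7 to 69.6 RPKM (0.37, adjusted p = 0.0249), and Rb1 fell from 22.3 and 24.0 to 16.3 RPKM (-0.47, adjusted p = 0.0243), both by limma. In Etn-deprived Cdkn2d, the p19Ink4d inhibitor, fell to 14.1 RPKM from 21.0 and 19.0 (-0.48, adjusted p = 0.0283), as did its target kinase Cdk4 (-0.30, adjusted p = 0.0310). Of 21 regulators of the Ink4/Arf locus tested, which include the Polycomb genes, the only call was Id1, also on the TGF-beta list, lower in Etn-deprived (38.1 against 53.5 and 54.0 RPKM, -0.49, adjusted p = 0.00635). The median of this list was -0.09 in shEtnk1/2, -0.06 in shPcyt2, -0.08 in Etn-deprived and 0.06 in shPebp1, against -0.06, -0.02, -0.01 and 0.01 over all genes.

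Some senescence-associated secreted factors and TGF-beta targets rose in shEtnk1/2, where limma called 3.46% of all genes, 130 of 11939 higher. Of 19 secreted factors tested, 4 rose there: Igfbp2 from 58.5 and 70.7 to 102 RPKM (0.65, limma adjusted p = 0.0458), Plat, tissue plasminogen activator (0.52, adjusted p = 0.0390), Igfbp7 (0.49, adjusted p = 0.0176) and the chemokine gene Ccl7 (0.37, adjusted p = 0.0495). Il6, Il1a, Il1b, Cxcl1, Cxcl2, Areg and Csf2 were also on this list of 26 but were not tested. In all 17 of the 19 tested factors had differences above 0, with a median of 0.29 against -0.06 over all genes. Many of these are also products of fibroblasts, whose marker sum was highest in this library, and a part of fibroblast content in these differences was not tested. In Etn-deprived the median was 0.24 and Ccl7 rose to 59.7 RPKM from 42.8 and 38.2 (0.55, adjusted p = 0.00951). No secreted factor was called in shPcyt2 (median 0.07) or shPebp1 (median -0.07). Of 12 TGF-beta targets 2 were called in shEtnk1/2, both higher: Itga11, a collagen receptor subunit (0.57, limma adjusted p = 0.0164), and Id3 (0.44, adjusted p = 0.0121). Of the 12, 11 had differences above 0 in shEtnk1/2 and 1, Smad7 at -0.16, below. The list median was 0.29 in shEtnk1/2, 0.17 in shPcyt2, 0.09 in Etn-deprived and -0.07 in shPebp1.

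Some nuclear genes known to decline in senescence fell in shEtnk1/2, where limma called 3.46% of all tested genes, 283 of 11939 lower. Lmnb1, lamin B1, fell from 73.1 and 78.2 to 60.0 RPKM (-0.33, limma adjusted p = 0.0433) and Hmgb2, a chromatin protein, from 67.7 and 73.8 to 53.6 RPKM (-0.39, adjusted p = 0.0265). Both came from a list of 7 nuclear and lysosomal senescence markers. The other 5 were not called in shEtnk1/2, with Plaur at 0.34, Dek at 0.03, Fuca1 at 0.01, Hmgb1 at -0.13 and Glb1 at -0.16. Dek rose in Etn-deprived (0.39, limma adjusted p = 0.0283), where limma called 3.80% of all genes. Of 21 proliferation genes, all had differences below 0 in shEtnk1/2, with a median of -0.16 against -0.06 over all genes. The 1 called among these proliferation genes was Mcm7, a subunit of the replicative helicase (-0.31, limma adjusted p = 0.0475), a count near the 3.46% of all genes called there. In shPcyt2 their median was -0.01, in Etn-deprived -0.06 and in shPebp1 0.06, with no call. Each of the list genes named as called in shEtnk1/2 passed in 4 to 8 of 11 alternatives, and in Etn-deprived in 4 to 7. None passed with either shLuc library left out, but the error of those fits came from differently treated libraries and cannot decide calls. With the length and GC trends removed, none of the 7 list genes called in Etn-deprived passed: Rpl11 went from -0.55 to -0.35, Cdk4 from -0.30 to -0.17, Id1 from -0.49 to -0.31 and Dek from 0.39 to 0.24, with Cdkn2d at -0.34, Ptp4a3 at -0.42 and Ccl7 at 0.55.

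**Figure D4:**
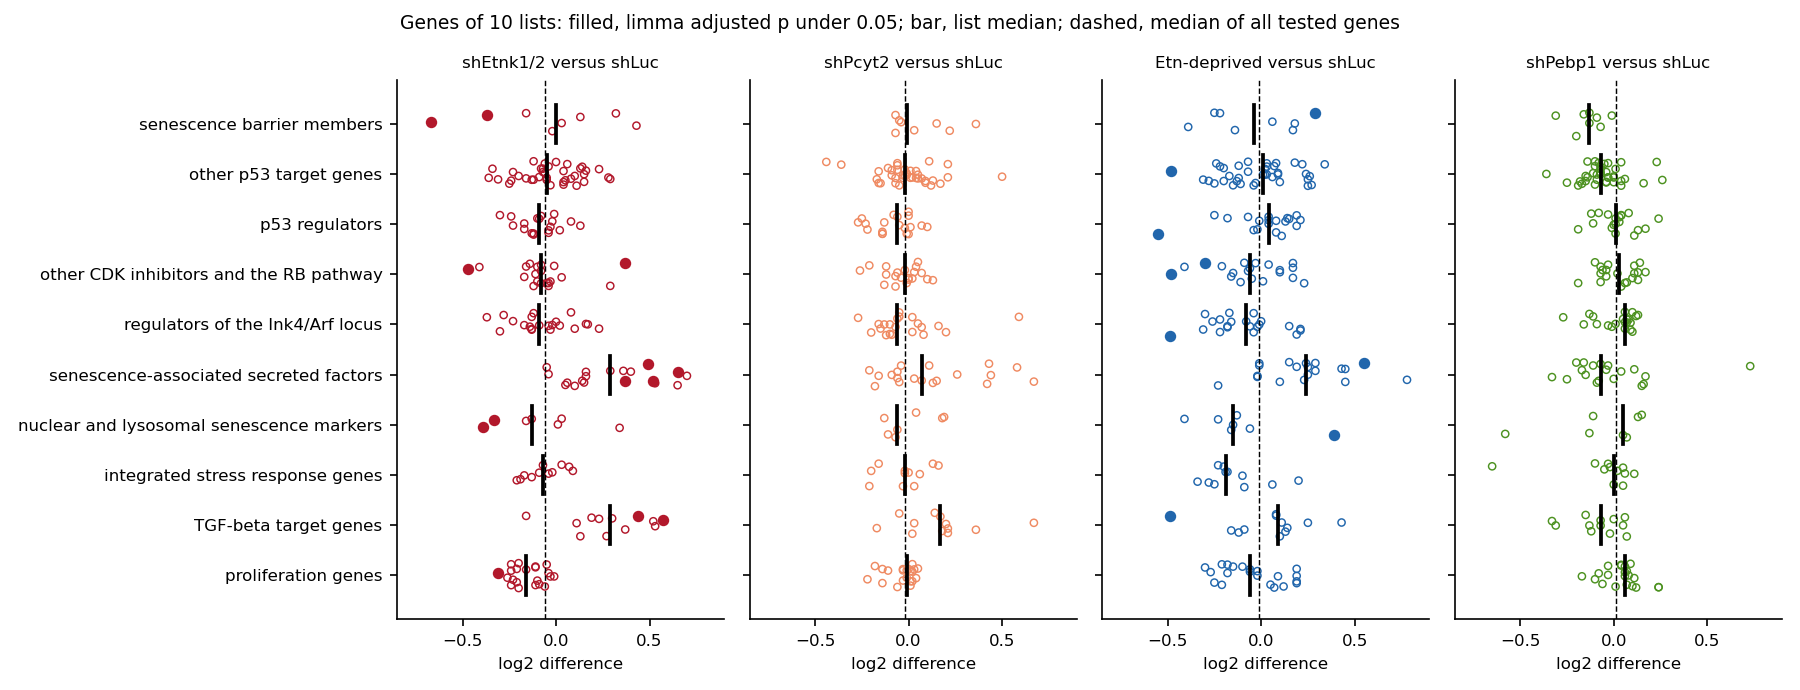
Difference from shLuc on the log2(RPKM + 1) scale for every tested gene of 10 lists, in 4 comparisons; filled points had a limma adjusted p under 0.05, bars are list medians and the dashed line is the median of all tested genes. The secreted factors and TGF-beta targets lie to the right in shEtnk1/2 (medians 0.29) and the other p53 targets on the dashed line (median -0.05 against -0.06).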

How the data were processed

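The deposited values are RPKM per gene for 6 libraries of poly(A) RNA. Per the submitters' processing notes, the authors used Bowtie 0.12.2 and mm10; no source used here names the gene models, the counting program or the use of strand. All 18303 lines, of which 2 repeated lines were dropped before testing, had values that came out as whole reads within 0.0001 reads, which gave the library totals (18599217 to 20164255), transcript lengths and read counts. Intervals on RPKM are exact 95% Poisson intervals and cover counting error only.

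Genes averaging 1 RPKM or more were tested as log2(RPKM + 1), which understates changes of low genes, with limma 3.58.1 (R 4.3.3; trended, robust empirical Bayes) and two-sided Benjamini-Hochberg adjusted p over all tested genes, threshold 0.05. Treated groups hold 1 library, so the replicate error of the single comparisons is that of the shLuc pair, moderated across genes, and the treated libraries are assumed to vary alike. The fit was tested on simulated data in which all libraries varied alike, so that test cannot check this assumption. Log2 differences are treated minus shLuc. "Called" means past that threshold, and a p that misses it does not show equal levels.

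The members and lists were chosen with earlier results of these data known. Named genes were the members, the targeted genes, up to 4 called genes per list by size (where none was called, the 2 with the largest difference) and the 2 genes most like each member. Alternatives were a pseudocount of 0.1, no filter or a filter of 5 RPKM, median-ratio scaling, quantile normalization, limma-voom on the recovered reads, removal of the trend with length, leaving out small RNAs, and leaving out each shLuc library. Removal of the length and GC trends together was added after seeing the data, with GC content, from GENCODE transcripts, known for 95.5% of tested genes. Sequences come from RefSeq upstream windows, all 8 members matched by symbol. Protein sequences were not used here.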

Additional observations from a re-analysis of the deposited data

Results flagged for a closer look

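Cdkn2b was the member with a limma call in a contrast between treated libraries. It was higher in shEtnk1/2 than in shPebp1 by 0.52 on the log2(RPKM + 1) scale (38.6 against 26.6 RPKM, limma adjusted p = 0.0194). Each side is 1 library with no replicate, and the error came from the shLuc pair alone, including the library whose Pebp1 level went against its label. The p therefore compares these 2 libraries, not the conditions. Over 9 alternative settings the difference ranged from 0.52 to 0.61 and passed in 8, with adjusted p from 0.00148 to 0.284. All 9 kept both shLuc libraries as the source of error, and leaving either out was not run for this contrast. The 2 libraries labelled shLuc, at 30.4 and 30.9 RPKM, lay between the 2 treated ones.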

How the results depend on the processing

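Over the alternatives, no member was called in shPcyt2, shPebp1 or the pathway comparison, as in the main setting. Counts of members depend on how many genes a setting calls. With no filter limma called 0 of 18301 genes higher and 0 lower in shEtnk1/2 and in Etn-deprived, so no member could be called. In shEtnk1/2, with 2 members called in the main setting, quantile normalization called 0 (81 genes higher and 72 lower of 11939). Removing the length trend left 1 (143 and 80), and removing the length and GC trends left 1 (97 and 53 of 11407). The fits without either shLuc library took their error from differently treated libraries and cannot decide calls. With median-ratio scaling (138 genes higher and 102 lower) the 2 called in shEtnk1/2 were Cdkn2b and Gdf15, and with limma-voom (336 and 455) Cdkn2a and Trp53. The count in Etn-deprived, 1 in the main setting, was 0 with median-ratio scaling (41 genes higher and 220 lower) and with the length trend removed (41 and 70). It was 0 with the length and GC trends removed (11 and 34 of 11407) and 2 without small RNAs (174 and 665 of 11817). In the 6 contrasts between treated libraries the count, 1 in the main setting, was 0 with no filter, 5 with a mean of at least 5 RPKM, 7 with limma-voom and 6 without small RNAs. Counts of all genes called in these contrasts under those settings are not given here, so the changes are not read as a result about the members. Against a single shLuc library, 9 to 17 member values in the 4 treated libraries lay above it and 15 to 23 below, against 9 and 15 outside the range of both. Of all tested genes, 25.0% to 36.6% lay above both controls in a treated library and 31.7% to 51.9% below both. The shares against a single control are not given here, so these counts are not read as a result about the members. The directions that reversed belonged to differences that were never called. For Cdkn1a in shEtnk1/2 they were 0.05 (median-ratio), 0.01 (quantile), 0.04 (length), 0.07 (length and GC) and 0.02 (without shLuc replicate 2), and for Cdkn1a in the pathway comparison 0.03, 0.01, 0.03, 0.05 and 0.04 in the same order, 0.005 without shEtnk1/2 and 0.07 without Etn-deprived. For Mdm2 they were -0.02 in shEtnk1/2 without shLuc replicate 1, 0.01 in shPcyt2 without shLuc replicate 2 and -0.01 in the pathway comparison without Etn-deprived. For Ccng1 in shPcyt2 they were -0.02 (quantile) and -0.01 (without shLuc replicate 1), for Bbc3 0.02 in shPcyt2 and 0.06 in shPebp1 without shLuc replicate 2 and 0.05 in shPebp1 with the length and GC trends removed, and for Cdkn2a -0.03 in Etn-deprived without shLuc replicate 1 and 0.07 in shPebp1 without shLuc replicate 2. When a library was left out, the range was -0.06 to 0.02 for Cdkn1a in shEtnk1/2, -0.09 to 0.01 for Mdm2 and -0.13 to 0.02 for Bbc3 in shPcyt2, -0.03 to 0.38 for Cdkn2a in Etn-deprived, -0.34 to 0.07 for Cdkn2a and -0.08 to 0.06 for Bbc3 in shPebp1, and -0.08 to 0.07 for Cdkn1a and -0.01 to 0.10 for Mdm2 in the pathway comparison. The cause of these changes was not tested. No paired analysis was possible because replicate numbers exist for shLuc alone. Gdf15 rests on 105 to 193 reads per library, the fewest of the members.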
